A study of Homo sapiens with 2 samples.

Results

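Potassium channel genes were followed in 1 library of parental Capan-1 cells and 1 library of an olaparib-resistant derivative. The members were the protein-coding genes whose symbol starts with KCN followed by a subfamily letter, and 68 of the 31845 rows of the gene table met this rule. The GENCODE release 29 annotation lists 97 such genes, so 29 had no row and were not analysed here. Both libraries come from Capan-1, a pancreatic cancer cell line that carries mutant BRCA2 and is held by cell repositories. Olaparib inhibits PARP enzymes, and the derivative was selected by raising its concentration in steps from 15 nM to 128 uM. The labels give no drug treatment for the parental cells, do not say whether the derivative is a clone, and call the cell type breast cancer. The column headed RCA was taken as the resistant library because it was the remaining one, since no label spells the heading out. The directions of all differences depend on this reading.

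Potassium channels let potassium ions leave or enter the cell along their gradient and so set the membrane voltage. In epithelia such as the pancreatic duct, potassium exit keeps the inside of the cell negative and so sustains chloride and bicarbonate secretion through CFTR and other anion channels. Pore-forming subunits fall into voltage-gated (KCNA, KCNB, KCNC, KCND, KCNF, KCNG, KCNH, KCNQ, KCNS and KCNV), inward rectifier (KCNJ), tandem pore domain (KCNK) and calcium- or sodium-activated (KCNMA, KCNN, KCNT and KCNU) classes. KCNE, KCNAB, KCNIP and KCNMB genes encode accessory subunits, and KCNRG encodes a regulator that interferes with channel assembly.

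The feature that makes a subunit a potassium pore is the selectivity filter, a short loop that lines the narrowest part of the channel. Reference coding sequences of the longest GENCODE coding transcript of each member were searched for codons of threonine or serine, any residue, glycine, tyrosine, phenylalanine or leucine, and glycine, in that order. All 54 pore-forming members with a row held such a stretch and 0 of the 14 accessory or regulatory members did, against 6.06% of 19529 coding genes. Among the 12 tandem pore members, 10 held 2 or more stretches, against 2 of the 42 other pore-forming members. The pattern was written to describe this filter, so its presence in the pore genes is not a result of these data. With 6.06% of coding genes matching, 0 of 14 accessory or regulatory members is close to the general share. The stretches below show the filter in pore genes with counts. Capitals mark the filter codons, and 15 bases are given on each side.
KCNQ1: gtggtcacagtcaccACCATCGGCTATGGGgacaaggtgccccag
KCNS3: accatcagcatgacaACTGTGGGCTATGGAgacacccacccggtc
KCNG3: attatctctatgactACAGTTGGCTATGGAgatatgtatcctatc
KCNC4: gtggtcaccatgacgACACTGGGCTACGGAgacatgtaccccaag
KCNH8: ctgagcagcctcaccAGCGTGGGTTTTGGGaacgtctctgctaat
KCNJ14: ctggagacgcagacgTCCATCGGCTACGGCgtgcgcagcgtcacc
KCNN4: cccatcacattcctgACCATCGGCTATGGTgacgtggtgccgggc
KCNK5, first filter: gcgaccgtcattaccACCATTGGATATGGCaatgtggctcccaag
KCNK5, second filter: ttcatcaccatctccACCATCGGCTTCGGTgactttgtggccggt
These are reference sequences and say nothing of variants in the cells. KCNE3, the member with the most parental counts, holds no such stretch in its 309 coding bases.

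The library totals were 34572931 counts in the parental and 34507480 counts in the resistant library. Counts were scaled by TMM, and log2 ratios are resistant over parental with a prior of 1 count. A call needed 50 counts or more in whichever library had more, and a log2 ratio of at least 1 in size, which is 2-fold. There is 1 library per group, so no test was run, and the 95% intervals of folds cover counting error only. In such bulk RNA, fewer cells expressing a gene and less RNA per cell cannot be told apart. Of 14 pancreatic duct and epithelial markers, 12 had at least 50 counts, of which 0 were called higher and 3 lower. The lower ones were CFTR, MUC1 (3572 parental and 1399 resistant counts) and CA2 (670 and 136). KRT19, a duct keratin, stood at 704 FPKM (fragments counted, divided by gene length and library size) in the parental and 932 in the resistant library. The list's summed level was 1819 and 2644 FPKM. Most of it came from KRT19, KRT18 (400 and 590), EPCAM (323 and 603) and KRT7 (273 and 410). The sum thus says little of the other markers, such as SOX9 with 8.25 and 5.13 FPKM. Of 8 mammary markers 3 reached 50 counts, and SCGB2A2 and TFAP2B had no row. GATA3 was 3.85-fold and MLPH 2.86-fold lower, while FOXA1 lay within 2-fold with 141 parental and 116 resistant counts. Under 50 counts, ESR1 (8 and 18) and ANKRD30A (2 and 13) had more in the resistant library and PGR (4 and 1) fewer. The list's sum was 38.6 FPKM in the parental and 14.3 in the resistant library, of which MLPH made up 28.5 and 10.3. Of 12 neuronal markers 2 reached 50 counts, TUBB3, called higher with 84 and 239, and MAP2, called lower with 72 and 27. Their list's sum was 1.99 and 5.20 FPKM, of which TUBB3 made up 1.72 and 5.11. RBFOX3 had 0 parental and 2 resistant counts, while SYP had 7 and 0. Of the 8 muscle, 8 endocrine and 8 leukocyte markers, 2, 1 and 2 reached 50 counts, and CORO1A of the leukocyte list was called higher with 12 and 81. Any part of these cell type markers in the channel values was not tested.

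Few potassium channel genes were well expressed. At least 50 counts in a library were reached by 21 of the 68 members, or 30.9%, against 74.3% of the 16349 protein-coding rows. The parental library had 17 members at 50 counts and the resistant library 16, with 12 in both. For comparison, 6 of 21 voltage-gated calcium channel genes, 3 of 16 sodium channel genes, 10 of 20 TRP channel genes and 17 of 29 chloride channel genes reached 50 counts. Among members at that level, 6 were at least 2-fold lower in the resistant library, 3 were at least 2-fold higher and 12 lay within 2-fold. Among the 12143 protein-coding genes at the same level, 8.75% were lower and 5.47% higher, and among all 15102 genes at it, 1352 were lower and 906 higher. Of the 9 members called, 6 had under 50 counts in the other library, and a gene that passes through 1 library alone tends to differ. Among the 12 members with 50 counts in both libraries, 3 were lower (KCNE3, KCNS3 and KCNRG) and 0 higher, against 6.15% and 3.78% of all genes with 50 counts in both. Of the 16 members whose higher count was at least 50 and under 500, 4 were lower and 3 higher, against 12.7% and 8.56% of all genes in that range. The median log2 ratio over the 21 members was -0.57, beside 0.06 over all genes at the level. In the other channel families the median at that level was -0.52 for TRP and -1.42 for sodium channel genes. It was 0.38 for voltage-gated calcium and 0.11 for chloride channel genes.

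**Figure D1:**
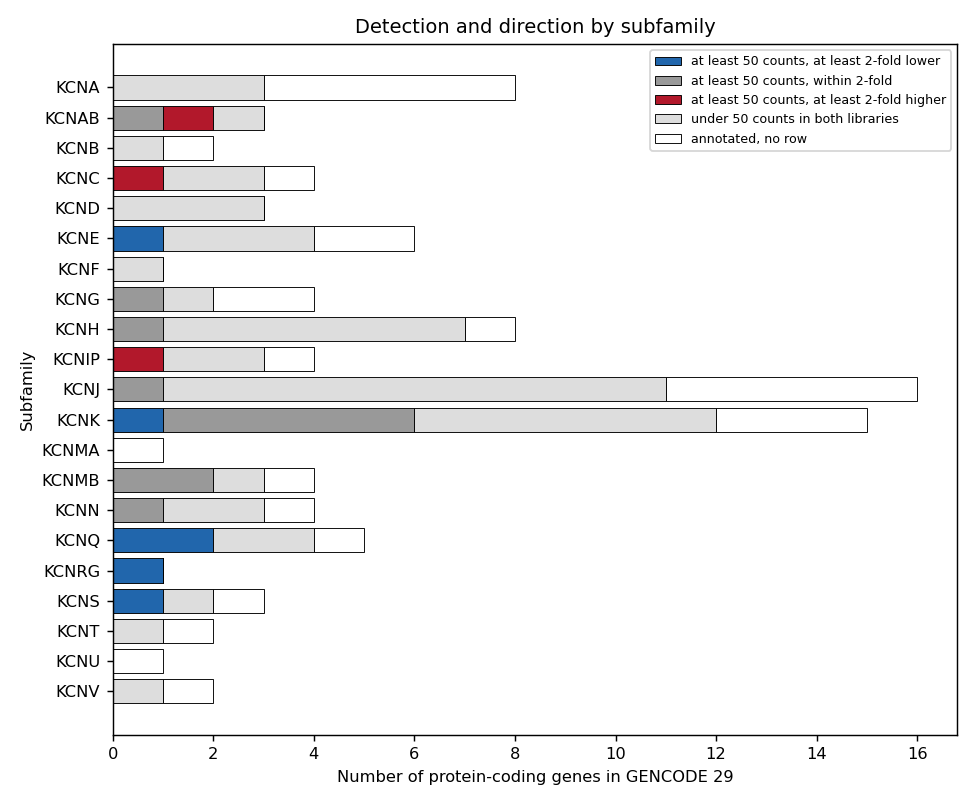
Number of protein-coding genes in each KCN subfamily of the GENCODE 29 annotation, divided by whether the gene had at least 50 counts in a library and by its direction in the resistant library. KCNA, KCNB, KCND, KCNF, KCNMA, KCNT, KCNU and KCNV have no member at 50 counts, while KCNK has 6 and KCNAB, KCNMB and KCNQ have 2 each.

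Summed over the 68 members, there were 15380 counts in the parental and 5991 in the resistant library, 2.55-fold fewer after scaling. KCNE3 held 41.7% of the members' parental counts and 16.7% of their resistant counts. Without KCNE3 the sum was 1.78-fold lower, and without KCNE3 and KCNS3 it was 1.48-fold lower. KCNE3, KCNMB4 and KCNS3 together made up 68.9% of the parental and 41.5% of the resistant sum.

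**Figure D2:**
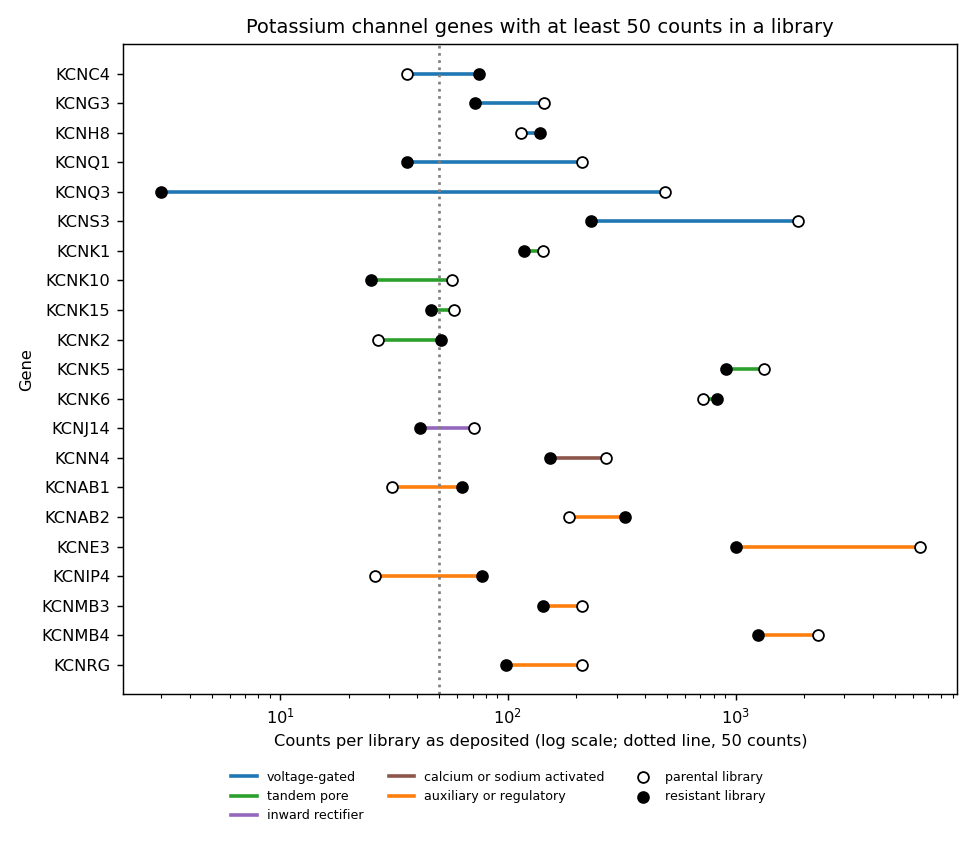
Counts as deposited of the 21 members with at least 50 counts in a library, on a log axis, with an open circle for the parental and a filled circle for the resistant library and line colour for the channel class. The longest lines belong to KCNQ3 (488 to 3), KCNS3 (1878 to 231), KCNE3 (6421 to 1003) and KCNQ1 (211 to 36).

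KCNQ channels open near the resting voltage, and both KCNQ genes at 50 counts were called lower in the resistant library. KCNQ1 (ENSG00000053918), the epithelial and cardiac member, had 211 parental and 36 resistant counts, 5.82-fold lower (interval 4.07 to 8.54). KCNQ3 (ENSG00000184156), best known from the neuronal M current, had 488 parental and 3 resistant counts. With so few counts left its ratio of parental over resistant was 162, with an interval of 55.0 to 786. The resistant count of KCNQ3 was no higher than the floor of 3 counts. The exons of KCNQ1 share 121 bases with the antisense RNA KCNQ1OT1, which had 5992 parental and 4345 resistant counts, 1.37-fold lower. This share is 2.72% of the KCNQ1 exonic bases, and since no source here says whether counting used strand, reads in it could belong to either gene.

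KCNE subunits are small single-pass membrane proteins that change the gating of KCNQ channels. KCNE3 (ENSG00000175538), which holds KCNQ1 open in secretory epithelia, had the highest FPKM of all members in both libraries. By counts KCNMB4 stood above it in the resistant library, with 1253. KCNE3 had 6421 parental and 1003 resistant counts, or 23.0 and 3.75 FPKM, and was 6.36-fold lower (interval 5.95 to 6.80). In the parental library its FPKM exceeded that of 86.3% of coding rows, and in the resistant library that of 55.9%. The counting interval of the KCNE3 fold lay inside that of its pore partner KCNQ1. The KCNQ1 interval is wide, at 36 resistant counts, and also holds the 8.08-fold of KCNS3, so no common change is read from it. KCNE1, KCNE4 and KCNE5 had at most 5 counts, and all 3 had more in the parental library. The antisense row AP001372.3, which shares 16.6% of the KCNE3 exonic bases, had 97 parental and 5 resistant counts.

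KCNS and KCNG genes encode voltage-gated subunits that form no channel alone and modify KCNB channels. KCNS3 (ENSG00000170745) had 1878 parental and 231 resistant counts, or 9.07 and 1.16 FPKM, and was 8.08-fold lower (interval 7.04 to 9.30). It was the second most abundant member in the parental library by FPKM and stood at rank 8 in the resistant library. KCNG3, of the same kind, had 144 and 72 counts and was 1.99-fold lower (interval 1.49 to 2.67), just short of the 2-fold size. KCNG1 had 40 and 7 counts, under the minimum, with a parental over resistant ratio of 5.68 (interval 2.52 to 15.0). KCNS1 had at most 10 counts.

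KCNS3 lies on chromosome 2. Its 20 nearest measured coding genes, 10 to each side from SLC66A3 to LDAH, had a median log2 ratio of -0.79, with 8 called lower. The log2 ratio of KCNS3 was -3.01. The neighbours of KCNE3 had a median of -0.14 and those of KCNQ1 one of 0.01. Whether the low neighbourhood has a part in the KCNS3 value was not tested.

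The other voltage-gated members were scarce. KCNC4, a fast channel of the KCNC group, had 36 parental and 75 resistant counts and was 2.10-fold higher (interval 1.39 to 3.21). KCNH8, an ELK-type channel, had 114 and 138 counts, within 2-fold, and its interval of resistant over parental, 0.944 to 1.58, includes equal levels. KCNH2, the cardiac channel known as hERG, had 32 and 25 counts, and KCNH4 had 38 and 26. The 3 KCNA rows had at most 15 counts and the 3 KCND rows at most 14. KCNF1 had 2 counts in each library and KCNV1 at most 2.

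Tandem pore domain channels carry background potassium current, and 6 of their 12 rows reached 50 counts. KCNK5, an alkaline-activated channel of epithelia, had 1338 parental and 908 resistant counts, 1.46-fold lower (interval 1.34 to 1.59). KCNK6 had 716 and 830 counts, 1.17-fold higher (interval 1.05 to 1.29), and KCNK1 had 142 and 118, with an interval that includes equal levels. These 3 held FPKM values of 4.01, 3.03 and 3.38 in the parental and 2.84, 3.66 and 2.93 in the resistant library. They lay within 2-fold. KCNK15 had 58 and 46 counts, also with an interval that includes equal levels.

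Among mechanosensitive members of the class, KCNK10 and KCNK2 went in opposite directions at low counts. KCNK10 had 57 parental and 25 resistant counts, 2.26-fold lower (interval 1.39 to 3.78). KCNK2 had 27 and 51 counts, 1.90-fold higher (interval 1.17 to 3.15) and within the 2-fold size. The acid-sensitive KCNK3 had 11 and 0 counts, at least 3.64-fold lower against a floor of 3 counts per library. KCNK9, its close relative, had 25 and 1, a parental over resistant ratio of 24.8 (interval 4.07 to 1020). With the trend of the ratio with gene length removed, KCNK10 had a log2 ratio of -0.88, under the 2-fold size.

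Of the calcium- and sodium-activated channels, KCNN4 alone reached 50 counts. KCNN4, the calcium-activated channel of intermediate conductance found in epithelia and lymphocytes, had 269 parental and 153 resistant counts and was 1.75-fold lower (interval 1.43 to 2.14). KCNN1, KCNN2 and KCNT2 had at most 11 counts. KCNMA1, the large-conductance calcium-activated channel, had no row. The inward rectifiers, which pass potassium inward more easily than outward, were sparse as well, with 1 of 11 rows at the minimum. KCNJ14 had 71 and 41 counts, 1.72-fold lower (interval 1.16 to 2.59). Other genes overlap 25.0% of its exonic bases, so its value is uncertain. Among them GRWD1 shares 8.06% on the same strand and had 622 parental and 753 resistant counts. KCNJ12 had 33 and 47 counts and KCNJ2 had 26 and 28, and both intervals include equal levels. KCNJ12 has a near-identical copy, KCNJ18, so its value is uncertain. KCNJ11, the pore of ATP-sensitive channels in islet cells, had 10 and 1 counts.

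**Figure D3:**
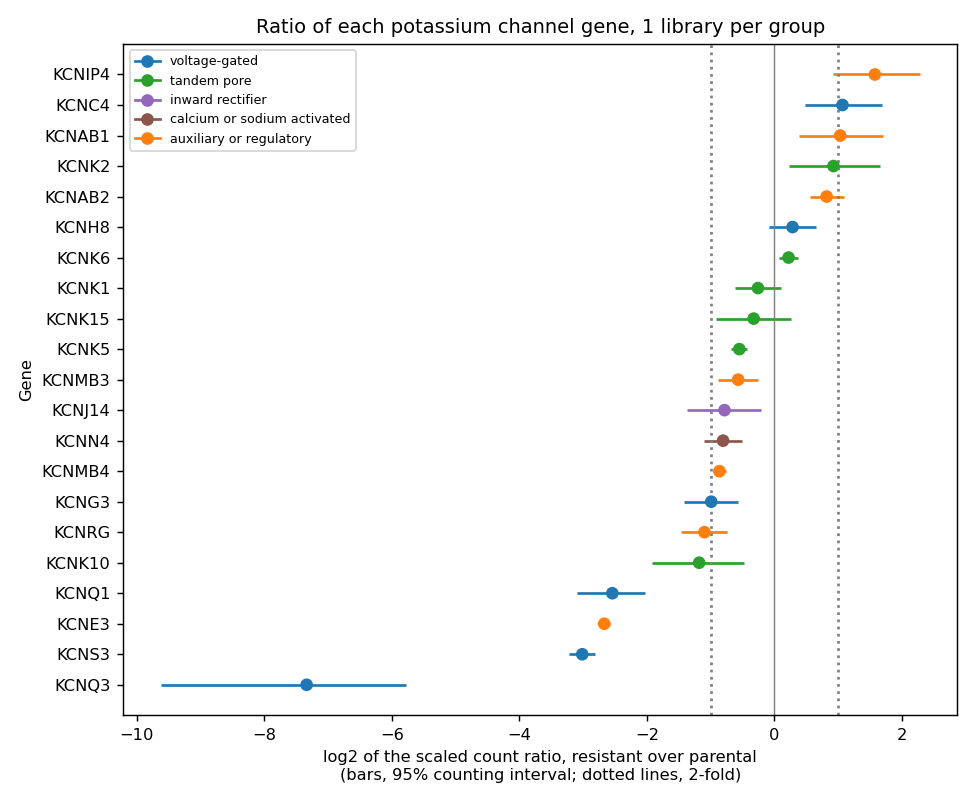
Scaled count ratio of resistant over parental on a log2 axis for the 21 members with at least 50 counts in a library, ordered by ratio, with bars for the 95% counting interval and colours for the class. KCNQ3, KCNS3, KCNE3 and KCNQ1 lie apart from the other 17, whose points fall between KCNK10 and KCNIP4, and the intervals of KCNH8, KCNK1 and KCNK15 cross 0.

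Accessory subunits of other channels differed in both directions. KCNMB4, a beta subunit of the large-conductance channel, had 2293 parental and 1253 resistant counts and was 1.82-fold lower (interval 1.70 to 1.95). KCNMB3 had 212 and 142 counts, 1.48-fold lower, but 37.9% of its exonic bases lie opposite PIK3CA exons, so that its value is uncertain. The KCNAB genes, whose products bind KCNA channels inside the cell, had more counts in the resistant library. KCNAB2 had 186 and 326 counts, 1.76-fold higher (interval 1.47 to 2.12), and KCNAB1 had 31 and 63, 2.05-fold higher (interval 1.31 to 3.25). KCNAB3 had 1 and 11 counts. KCNIP4, a calcium-binding partner of KCND channels, had 26 and 77 counts and was 2.98-fold higher (interval 1.89 to 4.85), the highest ratio among members at the minimum. KCNIP2 went the other way with 25 and 8 counts, under the minimum. The 20 nearest measured coding genes had a median log2 ratio of 0.63 at KCNAB2 and -0.56 at KCNMB4. At KCNIP4, KCNAB1 and KCNMB3 that median was 0.36, -0.19 and -0.16. Any part of these neighbours in the members' values was not tested.

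The regulator KCNRG had 211 parental and 98 resistant counts, 2.14-fold lower (interval 1.68 to 2.75). Of its exonic bases, 66.8% are shared with TRIM13 on the same strand, which had 1954 and 1159 counts and was 1.67-fold lower, so reads of the pair cannot be told apart there. Its 20 measured coding neighbours on chromosome 13, from FNDC3A to CKAP2, had a median log2 ratio of -0.72, with 5 called lower.

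The calls of KCNAB1 and KCNC4 sit close to the 2-fold size. With a prior of 5 counts their log2 ratios were 0.93 and 0.97, and KCNIP4 was then the 1 member called higher. With the length trend removed, KCNAB1 had 0.94 and KCNAB2 1.04, so the call passed from KCNAB1 to KCNAB2. With median of ratios scaling over genes at 50 counts, chosen after seeing the data, KCNAB1 had 0.95, KCNC4 0.99 and KCNG3 -1.04, which made KCNG3 called lower. The 4 lower members KCNQ3, KCNS3, KCNE3 and KCNQ1 were also past 4-fold, and 0 members were 4-fold higher.

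In accessory and pore genes that are known to work together, the counts were often far apart. KCNAB genes had 218 parental and 400 resistant counts in all, while the 3 KCNA rows had 11 and 17. Of the 8 annotated KCNA genes, 5 had no row. KCNS3 had 1878 and 231 and KCNG genes 184 and 79, while the 1 KCNB row had 1 and 0. Of the 2 annotated KCNB genes, 1 had no row. KCNMB genes had 2505 and 1397, while KCNMA1 had no row. KCNIP genes had 51 and 90, while the 3 KCND rows had 14 and 9. KCNE3 had 6421 and 1003, while KCNQ1 had 211 and 36.

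**Figure D4:**
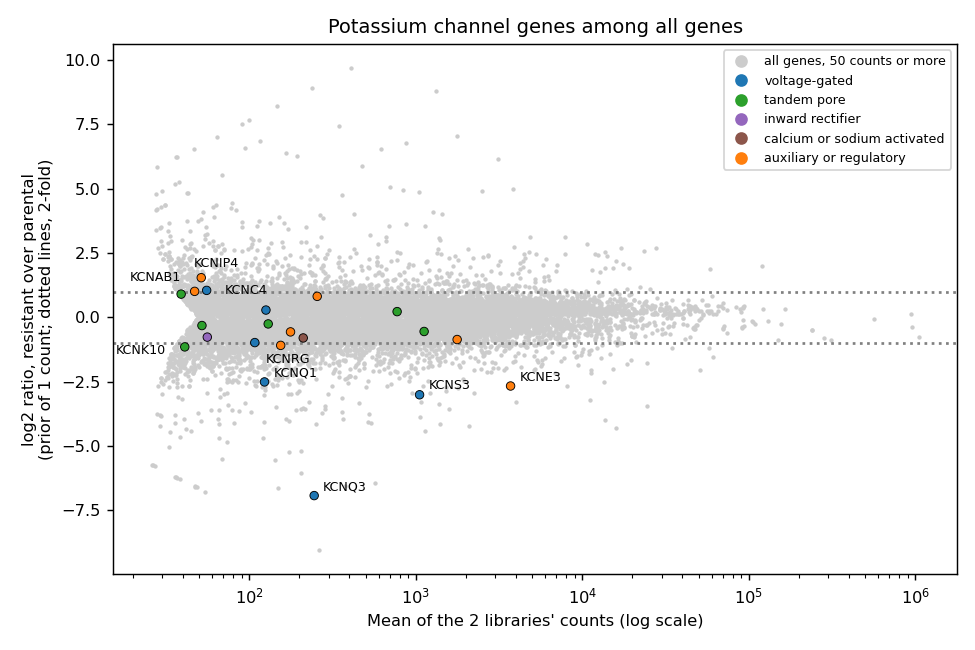
Log2 ratio of resistant over parental against the mean count of the 2 libraries, on a log axis, for all genes that reach 50 counts (grey) and the 21 potassium channel members (coloured by class). KCNQ3 lies at -6.93 near the lower edge of the grey cloud, KCNS3 at -3.01 and KCNE3 at -2.67 lie below most genes of like counts, and most other members lie inside the cloud.

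The order of levels between genes depends on the length used. By the deposited FPKM the parental order was KCNE3, KCNS3, KCNMB4, KCNK5 and KCNK1, and the resistant order KCNE3, KCNK6, KCNMB4, KCNK1 and KCNK5. Dividing counts by FPKM and by the library totals gave 7751 bases for KCNE3 in the resistant and 8068 in the parental library. GENCODE has 3677 exonic bases for KCNE3. For KCNK1 the division gave 1167 and 1214 bases, against 3627 exonic bases. The values of a gene differ between libraries, and the library size behind the FPKM values was not given. They are therefore not read as gene lengths. With GENCODE exonic lengths, KCNE3, KCNS3, KCNMB4 and KCNK5 held ranks 1 to 4 in the parental library and KCNK1 rank 9. KCNE3 ranked first in both libraries by either length. FPKM above 1 was reached by 10 members in the parental and 9 in the resistant library.

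Below 50 counts lay 47 members, with 27 of them under 10 counts in both libraries and 9 between 20 and 49. Of the 47, 25 had more counts in the parental and 18 in the resistant library, and 4 were equal. Their summed counts were 451 and 302. Of the 9, KCNIP2, KCNK9 and KCNG1 were among those at least 2-fold lower by the log2 ratio, and 0 were 2-fold higher. Counting intervals excluded equal levels for 12 of the 47. Of these, KCNAB3, KCNJ4 and KCNJ5 had more counts in the resistant library and the others fewer. The matching shares over all genes under 50 counts were not computed, so these counts are not read as particular to the members.

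Partner genes of potassium channels, comprising accessory proteins, pumps, cotransporters and anion channels, had 34 of 52 rows at 50 counts. Among these 34, 5 were called lower and 2 higher, with a median log2 ratio of -0.43, beside 8.75% and 5.47% of protein-coding genes. CFTR, the chloride and bicarbonate channel, had 8946 parental and 2563 resistant counts and was 3.47-fold lower. SLC12A2, the basolateral cotransporter that loads chloride with sodium and potassium, had 1893 and 918 counts and was 2.05-fold lower. SGK1, a kinase that raises channel number at the membrane, had 1218 and 283 counts and was 4.28-fold lower. LRRC8D, a subunit of volume-regulated anion channels, had 54 and 26 and was 2.06-fold lower. ANO1, a calcium-activated chloride channel, had 2026 and 1038 counts, 1.94-fold lower and within the 2-fold size.

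The members of the list that were higher do not carry ions. CNTNAP2, which anchors KCNA channels at nerve fibres, had 671 and 2682 counts and was 4.02-fold higher, while the KCNA rows had at most 15 counts. CALM2, one of the calmodulin genes, had 56 and 223 counts and was 4.01-fold higher. CALM3, which encodes the same protein, had a log2 ratio of -0.05. The partner genes of highest level were within 2-fold. The pump subunits ATP1B1 and ATP1B3 stood at 61.3 and 51.9 FPKM in the parental and 45.7 and 47.5 in the resistant library. OXSR1 and STK39, kinases that act on chloride cotransporters, stood at 50.9 and 27.0 against 37.2 and 30.5 FPKM. The pump regulators FXYD3 and FXYD5 stood at 24.8 and 29.2 against 30.6 and 23.5 FPKM. With the trend of the ratio with gene length removed, the list's median was -0.15, and SLC12A2 had a log2 ratio of -0.84.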

How the data were processed

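Total RNA was made into strand-specific libraries, per the labels' protocols. The table holds the authors' deposited counts, whole numbers with no normalization, and the authors' deposited FPKM values, per the file headers. Per the submitters' processing notes, RSEM 1.2.3 and hg19 were involved, with no role stated. The annotation and strand setting used were not given in the sources used here. GENCODE 29 describes another build, so it gave names, types, gene order, exon overlap and coding sequences, and no coordinates. A gene name table or GENCODE supplied symbols. KCNJ5-AS1, which GENCODE 29 lists as coding under an older name, and the readthrough KCNK4-TEX40 were left out.

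TMM factors (edgeR 4.0.16, R 4.3.3) scaled the counts, with Python 3.11.15, pandas 2.3.3, scipy 1.17.1, statsmodels 0.14.6 and Biopython 1.88 for the rest. Fold intervals are exact conditional (Clopper-Pearson) 95% intervals. Against a library at 0, the floor was 3 counts per library. Members, lists and settings were chosen with earlier results of these data known. The rule for names took every member at 50 counts, members from 20 to 49 counts with a 2-fold difference, and partner genes with a 2-fold difference or among the highest by FPKM. Other members under 50 counts and ANO1 and CALM3 were named after their values were seen. Some members and partner genes that the rule names are not reported here. The script was tested on simulated data. Alternatives covered scaling, prior counts, count minimums, fold size, FPKM values and a gene length trend.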

Additional observations from a re-analysis of the deposited data

How the results depend on the processing

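No paired analysis was possible because each group has 1 library. Under the 8 alternatives of scaling, prior, FPKM values and gene length, 0 of the 21 members at 50 counts changed sign, and 165 of 168 values stayed within their counting interval. The other 3, KCNE3, KCNK5 and KCNMB4 with the length trend removed, had log2 ratios of -2.52, -0.35 and -0.60. The number of members called higher, 3, was 1 with a prior of 5 counts and 1 with median of ratios scaling over genes at 50 counts, a setting chosen after seeing the data. It was 5 with a minimum of 10 counts, 0 with 200, 17 with none and 0 at 4-fold. The number called lower, 6, was 15 with a minimum of 10 counts, 10 with 20 and 21 with none. It was 5 with a minimum of 200 counts, 5 with the length trend removed and 4 at 4-fold. With median of ratios scaling over genes at 50 counts it was 7. The number of members at the minimum, 21, was 41 at 10 counts, 11 at 200 and 68 with none, by construction. The cause of the changes with prior and scaling was not tested. The median over members, -0.57, ranged from -0.86 to -0.49 among alternatives that kept the median. The median of all genes, 0.06, shifted by under 0.1 with each scaling. Members with few counts limit what depth can show, and with 1 library per group the spread between cultures is unknown.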

Other observations

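Rows named after potassium channel genes that are not protein-coding members also carried counts. KCNMB2-AS1, a long non-coding RNA at the KCNMB2 locus, had 128 resistant and 0 parental counts, at least 42.9-fold higher against a floor of 3 counts per library, while KCNMB2 itself had 2 and 0. KCNK4-TEX40, a readthrough of KCNK4 and its neighbour, had 100 resistant and 25 parental counts and was 4.03-fold higher, while KCNK4, which shares 61.9% of its exonic bases with it, had 2 and 1. KCNJ5-AS1 had 575 parental and 358 resistant counts and was 1.60-fold lower, while KCNJ5 had 0 and 8. The pseudogene KCNMB3P1 had 18 parental and 13 resistant counts. These genes were singled out after their values were seen.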
